A study of Mus musculus with 2 samples.

Results

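The tumour necrosis factor (TNF) superfamily of ligands and receptors was followed in ATDC5 cells, a mouse chondrocyte cell line. The members were all genes whose RefSeq symbol begins with Tnfsf or Tnfrsf, together with Tnf, Lta and Ltb. By this rule 34 of the 20433 named genes on the array were members, 14 ligands and 20 receptors. A gene counted as measured where a probe was well above background, by the scanner's flag, on at least 1 array, and 23 members of 14273 genes met this. The study held 2 stable cell lines made with lentivirus, 1 overexpressing GFP, the fluorescent control protein, and 1 overexpressing HES1, a transcriptional repressor that Notch signalling induces. RNA was taken from each line after 3 days of monolayer culture and hybridised to 1 array of a single-colour Agilent design. The design thus asked how the HES1 line differed from the GFP line. The labels do not say whether a line was 1 clone or a pool of transduced cells, and both lines had gone through lentiviral transduction.

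Ligands of this family are mostly trimeric membrane proteins that can be cleaved to soluble forms, and they signal by clustering receptors on the same or on neighbouring cells. Receptors with a cytoplasmic death domain can recruit FADD or TRADD and switch on caspases, while the others bind TRAF adaptors that activate NF-kappaB and MAP kinases. Decoy receptors bind ligand without passing on a signal. In cartilage and bone the family is best known for TNF itself, an inflammatory cytokine that drives matrix loss, and for the RANKL, RANK and osteoprotegerin system, which sets how many osteoclasts form.

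With 1 array per group, differences carry no test and no spread between cultures. Signals are in scanner units scaled so that the 75th percentile is equal on each array, and they can be compared between arrays for 1 gene but not between genes. Differences are log2 of the HES1 signal over the GFP signal, given with ± the technical error of the scanner's own error model, which leaves out differences between cultures. Higher and lower are used in counts for a gap of 2-fold or more between the measured signals. Where only 1 array showed it, a lower bound on the fold is given against the dimmest signal still seen on the other array, or against the dim probe's own signal if that was higher. The only probe for mouse Hes1 read 10.2 in the GFP sample and 10.3 in the HES1 sample, below background on each array, so it checked neither label, and the samples are named here by their labels. Of 11 chondrocyte markers, 8 were measured, Col2a1 and Sox9 among them, while Matn1, Matn3 and Hapln1 were not above background on either array. The median log2 difference of the 8 was -0.63, and that of the 7 seen on both arrays was -0.375. Sox6 counted through the GFP array alone. Col2a1 (-0.90), Col11a1 (-0.89) and Comp (-0.88) had the most negative differences of those seen on both arrays. Acan was at -0.375, Sox9 at -0.19, Sox5 at -0.13 and Col9a1 at 0.095, the last 2 within technical error by their brightest probes. A dimmer Sox5 probe read 227 and 160, a difference of -0.50 ± 0.22 that exceeded its error. The summed signal of the brightest probes was 54897 in the GFP sample and 43898 in the HES1 sample, mostly from 1 Sox5 probe (34961 and 31887).

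More members of the superfamily were higher than lower in the sample labelled HES1. Of the 23 measured members, 8 (34.8%) were at least 2-fold higher, against 11.1% of all measured genes. The higher members were Tnfsf10, Tnfsf18, Ltb, Tnfsf15, Tnfrsf12a, Tnfrsf1b, Tnfrsf22 and Tnfrsf23. Only Tnfrsf25 (4.35% of members) was at least 2-fold lower, against 4.95% of all genes, and 14 members lay within 2-fold. Of those 23 members, 3 counted as measured through the HES1 array alone and 1 through the GFP array alone, so the direction of those 4 was set by the filter. Among the 19 members seen on both arrays, 5 (26.3%) were higher and 1 lower, against 7.04% and 4.41% of the 13073 genes seen on both arrays. The median log2 difference of these 19 was 0.29, and that of all genes seen on both arrays was -0.09. A positive difference was found for 15 of the 19 (78.9%) and for 42.1% of all genes seen on both arrays. After a loess fit these shares were 89.5% and 54.4%. In 12 of the 19 the signal was higher by more than the technical error, in 2 it was lower by more than that error, and in 5 it lay within it. These shares of 63.2% higher and 10.5% lower compare with 26.0% and 39.3% of all genes seen on both arrays.

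**Figure D1:**
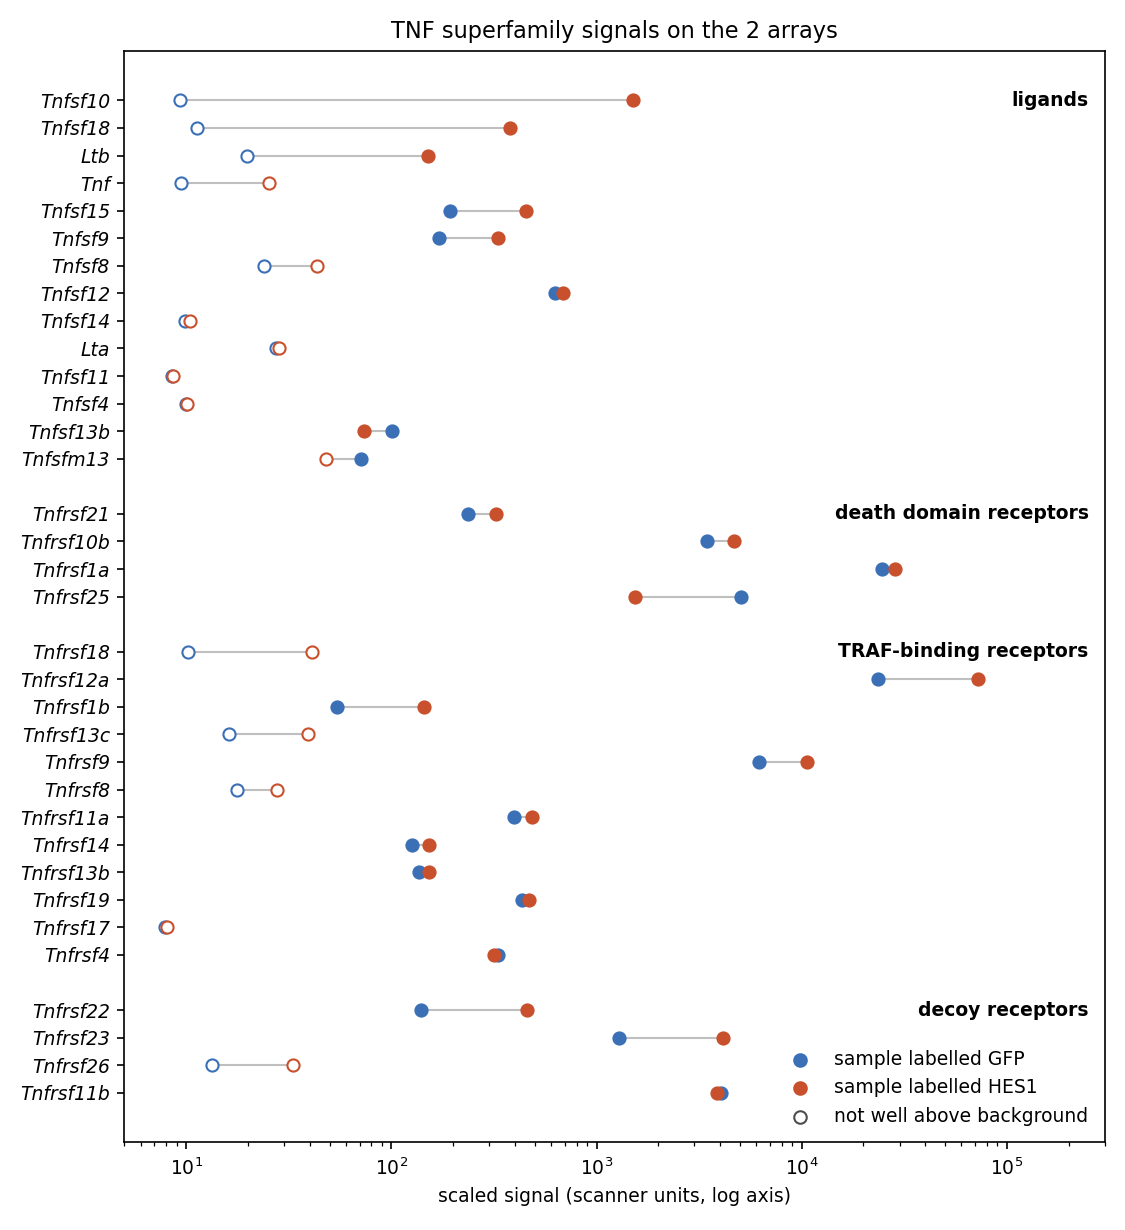
Scaled signal of all 34 members on the GFP array (blue) and the HES1 array (red), on a log axis in scanner units, grouped by role. Each point is 1 array, lines join the points of a gene, and open circles mark signals not well above background. Tnfsf10 went from 9.3 to 1508, and Tnfrsf25 from 5033 to 1544.

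**Figure D2:**
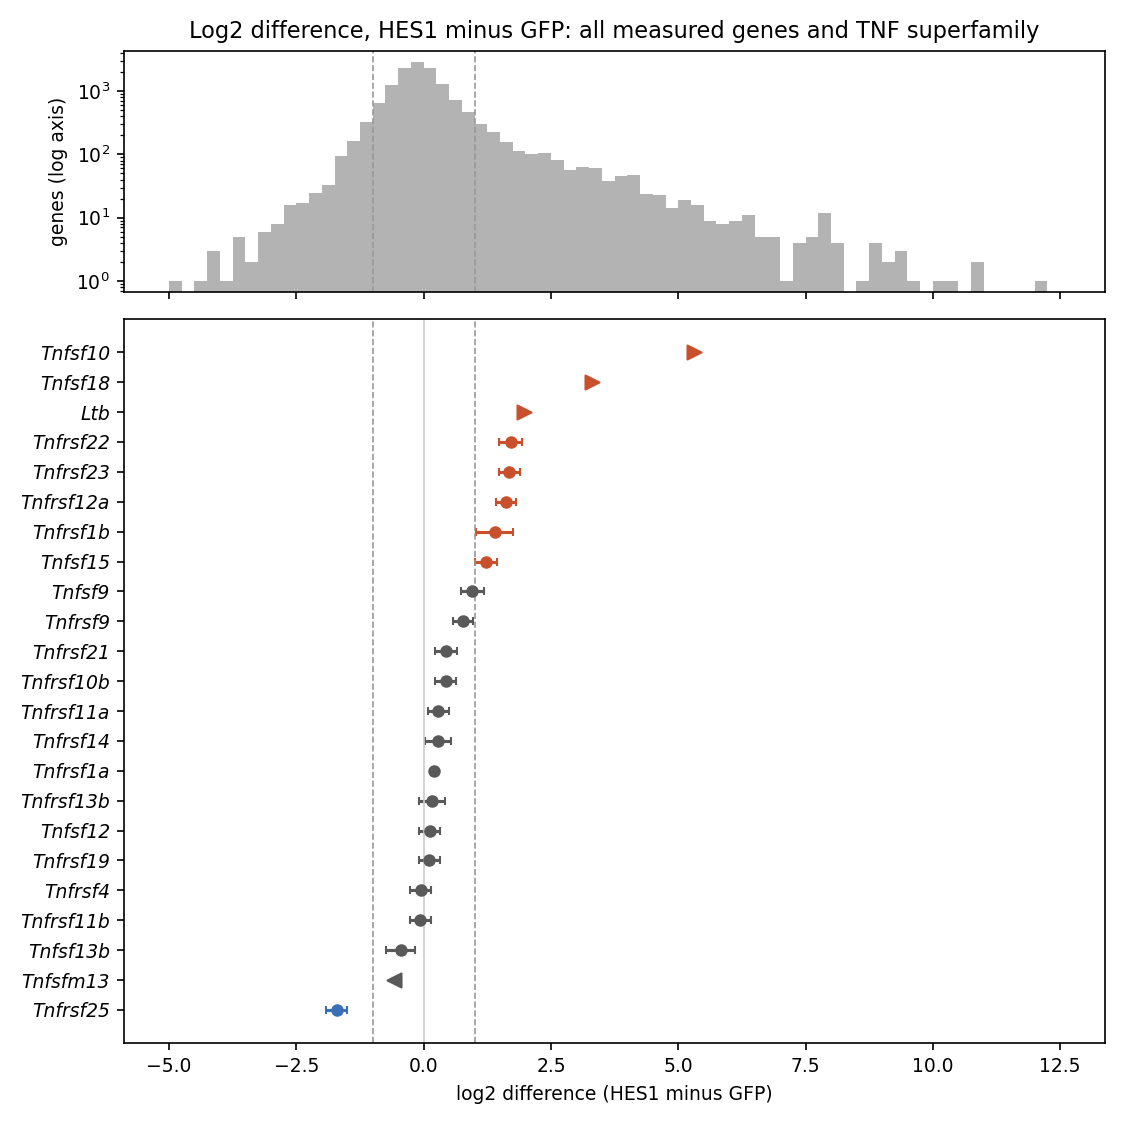
The upper panel is a histogram of measured log2 differences for 14273 genes, with gene counts on a log axis. The lower panel gives the 23 measured members, where bars are ± the scanner's technical error, triangles are bounds for genes seen on 1 array, and dashed lines mark 2-fold. Red members are at least 2-fold higher in the HES1 sample, the blue one, Tnfrsf25, is lower.

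Among the ligands, Tnfsf10, Tnfsf18 and Ltb were seen in the HES1 sample alone, so each has a lower bound and their folds have no order. Tnfsf10 encodes TRAIL. TRAIL triggers apoptosis through death receptors and is known as an interferon-induced gene in many cell types. Its signal was 9.3 in the GFP sample, below background, and 1508 in the HES1 sample, at least 39.5-fold higher. Tnfsf18, the ligand of the co-stimulatory receptor GITR, was likewise below background on the GFP array at 11.3 and read 380 on the HES1 array, at least 9.95-fold higher. Ltb encodes lymphotoxin beta, the membrane anchor of a lymphotoxin trimer that signals through the lymphotoxin beta receptor. It read 19.7 in the GFP sample, below background, and 151 in the HES1 sample, at least 3.95-fold higher. These bounds hold for the scanner's own background correction. With normexp, the log2 differences were 3.54 for Tnfsf10, 1.96 for Tnfsf18 and 0.88 for Ltb, below the bounds of 5.30, 3.31 and 1.98 on the same scale.

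The other ligands seen in both samples differed less. Tnfsf15 encodes TL1A, a T cell co-stimulator, and its signal of 194 in the GFP sample compared with 455 in the HES1 sample, a log2 difference of 1.23 ± 0.22. Tnfsf9, the 4-1BB ligand, read 171 and 331 (0.95 ± 0.23), just short of 2-fold, and it was past 2-fold after a loess fit (1.07) and after median centring (1.06). Tnfsf12, which encodes the TWEAK cytokine, read 629 and 683, a difference of 0.12 within its technical error of 0.21. Tnfsf13b encodes BAFF, a survival factor of B cells, and was dimmer in the HES1 sample at 73.8 against 101 (-0.45 ± 0.28). Tnfsfm13, the read-through transcript of Tnfsf12 and Tnfsf13, was seen on the GFP array alone, at 71.5 against 48.1, a bound of 1.49-fold lower. Its signal cannot be separated from that of Tnfsf12 or Tnfsf13 where a probe lies in shared sequence. Tnfsf13 itself and its antisense transcript were not analysed here.

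The remaining 6 ligands were not above background in either sample. They include Tnf, whose probe was spotted 10 times on each array. Its spots ranged from 8.0 to 10.9 with a median of 9.4 on the GFP array, and from 8.6 to 47.0 with a median of 27.0 on the HES1 array. The scanner flagged 0 of its 10 GFP spots and 1 of its 10 HES1 spots as well above background. The spot ranges overlapped, and no difference is given at this signal. Lta, the gene of lymphotoxin alpha, had 7 spots with medians of 28.8 and 29.8. Tnfsf11 (RANKL), Tnfsf4 (OX40 ligand) and Tnfsf14 (LIGHT) read between 8.5 and 10.4 on each array. Tnfsf8 (CD30 ligand) read 23.9 and 43.3. The scanner's flag, not a fixed signal, decided what was measured. That last signal, Tnfrsf18 at 41.0 and Tnfrsf13c at 39.4, all on the HES1 array, were not flagged, though the lowest signal seen there was 39.0. By its brighter array, Tnfsfm13 at 71.5 was the dimmest measured member.

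The ligand genes seen in the HES1 sample alone are shown with the 300 bases around their annotated start, 250 before it and 50 after, from RefSeq on build GRCm38.p6. Of the 34 members, 27 had such a promoter entry. The windows were searched on both strands for 4 patterns: the N-box CACNAG and the class C site CACGCG, which HES repressors are known to bind, the NF-kappaB pattern GGANNTTCC, and the pattern GAAANNGAA of interferon response elements. Capitals mark a match, and no matches overlapped. Tnfsf10 lies at chr3:27316827-27317126 on the plus strand, Tnfsf18 at chr1:161494407-161494706 on the plus strand and Ltb at chr17:35194257-35194556 on the plus strand.
Tnfsf10: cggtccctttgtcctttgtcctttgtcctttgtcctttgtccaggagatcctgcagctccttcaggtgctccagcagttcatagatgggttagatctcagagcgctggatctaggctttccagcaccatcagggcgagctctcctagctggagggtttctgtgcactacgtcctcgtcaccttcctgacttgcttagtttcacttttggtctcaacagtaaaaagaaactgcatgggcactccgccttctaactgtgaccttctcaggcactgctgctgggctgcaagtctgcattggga
Tnfsf18: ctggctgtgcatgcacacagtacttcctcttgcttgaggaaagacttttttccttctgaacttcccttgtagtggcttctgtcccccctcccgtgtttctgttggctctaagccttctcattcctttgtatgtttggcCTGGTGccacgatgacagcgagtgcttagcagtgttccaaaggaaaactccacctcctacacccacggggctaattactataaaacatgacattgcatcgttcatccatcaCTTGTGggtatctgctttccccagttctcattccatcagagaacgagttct
Ltb: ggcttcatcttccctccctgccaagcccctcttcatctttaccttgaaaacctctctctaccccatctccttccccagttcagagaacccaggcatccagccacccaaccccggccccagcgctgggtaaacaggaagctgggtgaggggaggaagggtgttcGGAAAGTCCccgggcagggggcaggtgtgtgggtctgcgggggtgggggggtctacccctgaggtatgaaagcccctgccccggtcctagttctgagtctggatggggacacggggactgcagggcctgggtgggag

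In the Tnfsf10 window none of the 4 patterns was present. The Tnfsf18 window held 2 N-box matches on the minus strand, the first beginning at base -112 and the second at base -1, counted from the annotated start as base 0. The Ltb window held an NF-kappaB match on the minus strand, beginning at base -87. Over the members, 13 of 27 genes had an N-box in a window, against 46.1% of all genes in the table. The class C site was in 2 member genes against 10.5% of all, the NF-kappaB pattern in 2 (Ltb and Tnf) against 4.86%, and the interferon pattern in 6 against 9.76%. In single windows rather than genes, the shares of all promoters were 42.5%, 9.27%, 4.26% and 8.56%. A match is a description of these letters only.

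Receptors were all measured on both arrays where they were measured at all, 15 of 20. Of these, 4 were at least 2-fold higher, 1 was lower and 10 lay within 2-fold. Of the 4 death domain receptors, all measured, none was 2-fold higher and 1 was lower. Tnfrsf1a, the main TNF receptor, was spotted 10 times by 1 probe, and its spots ran from 23429 to 25945 on the GFP array and from 25877 to 30772 on the HES1 array. These ranges overlapped at their edge, and the mean difference was 0.20 ± 0.06 (SD, n = 10 spots). A second Tnfrsf1a probe gave 0.13 ± 0.20. Tnfrsf10b, the death receptor DR5 through which TRAIL kills, read 3453 and 4670 (0.44 ± 0.20). Tnfrsf21, or DR6, read 238 and 323 (0.44 ± 0.21).

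Tnfrsf25 went the other way. It encodes DR3, the death domain receptor of TL1A, which is best known on T cells. Its signal was 5033 in the GFP sample and 1544 in the HES1 sample, 3.26-fold lower, with a log2 difference of -1.70 ± 0.20 from 1 probe. Its ligand gene Tnfsf15 was 2.34-fold higher, so ligand and receptor lay on opposite sides of 2-fold.

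Among the TRAF-binding receptors, Tnfrsf12a had the largest difference. It encodes Fn14, the receptor of TWEAK, and read 23532 in the GFP sample and 72121 in the HES1 sample, 3.06-fold higher (1.62 ± 0.20). Its ligand gene Tnfsf12 lay within technical error, as given above. Tnfrsf1b, the second TNF receptor, was dim at 54.5 in the GFP sample and 144 in the HES1 sample, 2.63-fold higher (1.40 ± 0.36). Tnfrsf9, the co-stimulatory receptor 4-1BB, read 6200 and 10592 by its brighter probe (0.77 ± 0.20), while its other probe read 146 and 145. Tnfrsf11a, Tnfrsf14 (HVEM), Tnfrsf13b (TACI), Tnfrsf19 (TROY) and Tnfrsf4 (OX40) all lay between -0.06 and 0.29. By these brightest probes, differences of Tnfrsf13b, Tnfrsf19 and Tnfrsf4 were smaller than their technical errors. A dimmer Tnfrsf13b probe read 46.5 and 69.9, a difference of 0.59 ± 0.40 that exceeded its error. Tnfrsf8 (CD30), Tnfrsf13c (BAFF receptor), Tnfrsf17 (BCMA) and Tnfrsf18 (GITR) were not above background on either array.

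The promoter windows of 2 receptor genes that lay on opposite sides are shown for the same patterns, again with matches in capitals and from RefSeq on GRCm38.p6. Tnfrsf1b lies at chr4:145246821-145247120 on the minus strand and Tnfrsf25 at chr4:152115684-152115983 on the plus strand. Each is written 5′ to 3′ along its gene.
Tnfrsf1b: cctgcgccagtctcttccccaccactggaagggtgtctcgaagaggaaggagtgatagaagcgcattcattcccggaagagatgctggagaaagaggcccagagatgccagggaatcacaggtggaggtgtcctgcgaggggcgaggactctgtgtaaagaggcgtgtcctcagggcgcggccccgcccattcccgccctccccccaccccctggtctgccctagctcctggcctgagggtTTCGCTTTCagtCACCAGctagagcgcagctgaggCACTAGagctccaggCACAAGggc
Tnfrsf25: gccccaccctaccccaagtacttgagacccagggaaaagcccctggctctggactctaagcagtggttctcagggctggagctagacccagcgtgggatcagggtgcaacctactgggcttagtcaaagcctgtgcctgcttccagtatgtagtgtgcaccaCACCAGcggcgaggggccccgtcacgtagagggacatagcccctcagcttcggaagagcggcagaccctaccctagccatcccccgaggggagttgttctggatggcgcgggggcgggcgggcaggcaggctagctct

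The Tnfrsf1b window held the interferon pattern at base -9 on the minus strand and 3 N-box matches, at bases 3, 26 and 41. The Tnfrsf25 window held 1 N-box, at base -88, and the window of a second annotated start of that gene held 1 at base -53. N-box matches therefore occurred in windows of a member that was higher and of a member that was lower. Of the other receptors past 2-fold, Tnfrsf23 had 2 N-box matches and Tnfrsf12a none of the 4 patterns, and Tnfrsf22 was not searched.

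Of the 3 decoy receptors measured, Tnfrsf22 and Tnfrsf23 were higher and Tnfrsf11b lay within 2-fold. Tnfrsf22 and Tnfrsf23 encode mouse receptors that bind TRAIL but lack a death domain, and the genes are direct neighbours, with Tnfrsf26 beside them. Tnfrsf23 read 1294 in the GFP sample and 4150 in the HES1 sample, 3.21-fold higher (1.68 ± 0.20). Its second probe, near background at 38.7 and 48.6, gave 0.33 ± 0.42. Tnfrsf22 read 140 and 457 by its brighter probe, 3.27-fold higher (1.71 ± 0.23), and 137 and 226 by the other (0.72 ± 0.24). Both Tnfrsf22 probes read nearly the same on the GFP array, so the HES1 signal decided which was taken as brighter. By the other probe Tnfrsf22 lay within 2-fold. These receptors are close paralogs, so cross-hybridisation between their probes is possible and was not tested. Tnfrsf26, a related receptor, was not above background at 13.4 and 33.1.

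Osteoprotegerin and the RANK system differed little at the level of these genes. Tnfrsf11b, the secreted decoy that binds RANKL and also TRAIL, read 4031 and 3857, a difference of -0.06 within its technical error of 0.20. Tnfrsf11a (RANK) read 397 and 485 (0.29 ± 0.21), and Tnfsf11 (RANKL) was below background in both samples, as given above. Of 4 partners of that system in a separate list, Csf1, the macrophage colony-stimulating factor that osteoclast precursors need, was higher at 33474 against 11731 (2.85-fold, 1.51 ± 0.07). All 3 Csf1 probes were at least 2-fold higher. Lgr4, an R-spondin receptor that also binds RANKL, was lower at 242 against 497 (2.05-fold, -1.04 ± 0.21), and after a loess fit it was no longer 2-fold lower.

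Set side by side, ligands and their receptors did not share one pattern. Tnfsf10 was higher, as were its decoy receptor genes Tnfrsf22 and Tnfrsf23, while Tnfrsf10b and Tnfrsf11b lay within 2-fold. Tnfsf9 and Tnfrsf9 were both brighter in the HES1 sample and within 2-fold as scaled here, though Tnfsf9 passed 2-fold under the scalings named above. Ltb was higher while Ltbr, its receptor, read 20182 and 17451 (-0.21 ± 0.20). Tnfsf18 was higher, but its receptor gene Tnfrsf18 was below background on each array at 10.2 and 41.0, so that pair gives no comparison. Among gene neighbours, Tnfrsf22 and Tnfrsf23 were both higher by their brighter probes (1.71 and 1.68). Tnfsf18 adjoins Tnfsf4, Tnfrsf1b adjoins Tnfrsf8 and Ltb adjoins Tnf. In each of these last pairs the second gene was not above background in either sample, so the pair was not compared. For Tnf, with 10 spots, the call of not above background went by the majority of the spots' flags.

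Several of these genes are best known from lymphoid and myeloid cells, so markers of those cells were read on the same arrays. Of 5 T cell markers 2 were measured, Cd3e and Cd4. Their summed signal was 3860 in the GFP sample and 4063 in the HES1 sample, mostly from 1 Cd4 probe (2835 and 2895). The other Cd4 probe was not above background at 22.3 and 21.0, nor were Cd2, Cd3d and Cd8a. Of the B cell markers, Cd79a read 21.9 and 51.7, seen on the HES1 array alone, and Ms4a1 was not above background on either array. Of 6 myeloid markers on the array 4 were measured. Their sums of 50214 and 25335 came nearly all from 1 Itgam probe (47669 and 22759), with a difference of -1.07. The 2 other Itgam probes read below 100 on each array and gave 0.47 and 0.25, so the probes disagreed. Cd14 (-0.12 ± 0.21) and the brightest Csf1r probe (0.04 ± 0.20) lay within technical error. A second Csf1r probe gave -0.36 ± 0.20. Ptprc, the pan-leukocyte marker CD45, read 25.2 and 47.8, seen on the HES1 array alone and at least 1.25-fold higher, and Adgre1 and Tyrobp were not above background. What part such cells had in the values above was not tested. In bulk RNA, fewer cells of a type and less RNA per cell cannot be told apart.

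Superfamily members that carry other symbols, and so fell outside the rule, were read as separate lists. Of 8 receptors, 5 were measured and 2 were at least 2-fold higher, Cd40 and Ngfr. Cd40, a co-stimulatory receptor of antigen-presenting cells, read 10.0 in the GFP sample, below background, and 152 in the HES1 sample, at least 3.97-fold higher. Ngfr, the low-affinity neurotrophin receptor, read 45.9, below background, and 174, at least 3.78-fold higher. The death receptor gene Fas lay within 2-fold at 1048 and 1358 (0.37 ± 0.15). Of 4 ligands only Eda, which encodes ectodysplasin, was measured, at 291 and 402 (0.47 ± 0.21).

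Genes that carry the receptors' signal were also read, and an inhibitor, Tnfaip3, had the largest difference of these lists. Of 14 adaptors and ligases, all measured on both arrays, 3 were higher, 1 was lower and 10 lay within 2-fold, with a median of 0.31. Rnf31, the catalytic subunit of the linear ubiquitin ligase, read 4754 and 15268 (1.68 ± 0.20), and its second probe gave 1.73. Birc3, the ubiquitin ligase cIAP2, read 128 and 367 (1.52 ± 0.23), and the adaptor Traf1 read 2851 and 7922 (1.47 ± 0.20). Traf4 was lower at 1210 against 2618 (-1.11 ± 0.08), but less than 2-fold lower after a loess fit. Of 7 inhibitors, 2 were higher and 5 lay within 2-fold, with a median of 0.60. Tnfaip3, which encodes the ubiquitin-editing protein A20, read 1400 and 7259, 5.18-fold higher (2.37 ± 0.20). Cflar encodes cFLIP, an inhibitor of caspase-8, and was 2.84-fold higher at 1570 against 553 (1.51 ± 0.20), with its other 2 probes at 1.15 and 1.27.

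None of the 9 kinases that lead to NF-kappaB passed 2-fold. Their differences ran from -0.41 to 0.85 with a median of 0.24, and the largest was that of Ikbkg, the regulatory subunit NEMO, at 1589 and 2873. None of the 4 genes for shedding of ligands and receptors passed 2-fold. Adam17, the protease that releases soluble TNF, was the largest of these in size, at 135 in the GFP sample and 83.3 in the HES1 sample (-0.70 ± 0.26) by its brightest probe. Its other probe read 81.0 and 84.4 (0.06 ± 0.30), so the probes disagreed. Over all of these lists, 43 of 50 genes were measured, of which 8 (18.6%) were higher and 2 (4.65%) lower, beside 11.1% and 4.95% of all measured genes. Cd40 and Ngfr counted through the HES1 array alone, and of the 41 genes seen on both arrays 6 (14.6%) were higher and 2 (4.88%) lower, beside 7.04% and 4.41%. The 43 genes had a median of 0.24 beside -0.06 for all measured genes.

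**Figure D3:**
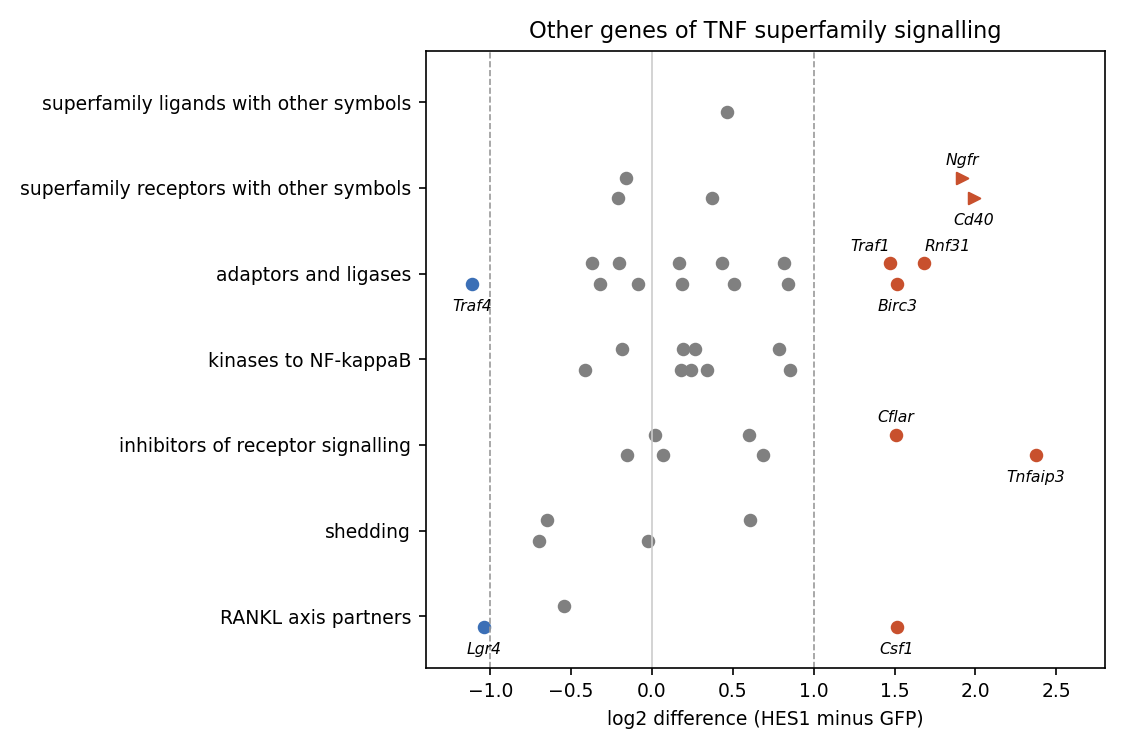
Log2 difference between the HES1 and GFP samples for each measured gene of the 7 lists of related signalling genes. Each point is 1 gene, triangles are bounds for genes seen on 1 array, and dashed lines mark 2-fold. Tnfaip3 lies farthest right at 2.37, and Traf4 farthest left at -1.11.

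Where several probes or another processing bear on a member past 2-fold, the value moved as follows. Under a normexp background correction with quantile normalization, 5 members stayed at least 2-fold higher, and the differences of Ltb, Tnfsf15 and Tnfrsf1b were 0.88, 0.79 and 0.43. With the median over a gene's probes, Tnfrsf22 was at 1.21 and Tnfrsf23 at 1.01. Tnfrsf12a ran from 1.62 to 1.80 and Tnfrsf25 from -1.70 to -1.56 over 9 alternatives.

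**Figure D4:**
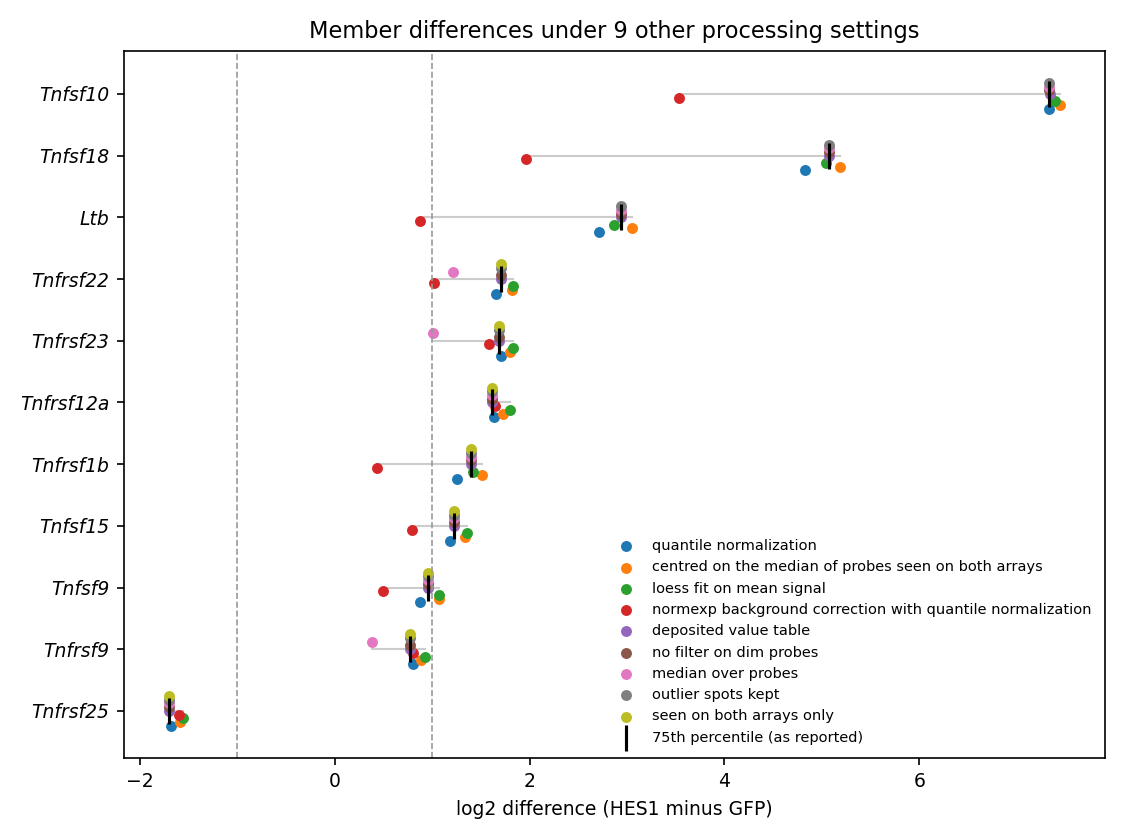
Log2 difference of the measured members whose difference was 0.7 or more in size, under the scaling reported here (black bar) and under up to 9 alternatives (coloured points), with dashed lines at 2-fold. The normexp points of Tnfsf10, Tnfsf18 and Ltb lie at 3.54, 1.96 and 0.88, well to the left of their other values, while all points of Tnfrsf25 lie below -1.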

How the data were processed

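Total RNA of 2 samples, 1 per group, was read on 2 arrays of 1 slide of a single-colour Agilent mouse design annotated on mm9, per the file headers. The deposited scanner files, written by Feature Extraction 10.10.1.1 (Agilent) as their headers state, hold an intensity per spot after background correction and detrending. Their deposited value table equals that intensity times 1 factor per array (1.45 for GFP, 1.53 for HES1), a linear scale with no centring.

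Here, log2 of the processed signal was centred per array on its 75th percentile (59305 spots), and signals are printed with that percentile at 1057.2. Flagged outlier spots (1053) were dropped, 0 spots were saturated, and spots of a probe were averaged. Accessions were named through a RefSeq table (GRCm38.p6, names and neighbours only), which named 48.9% of 54948 probes. A gene took its brightest measured probe, by the mean log2 signal of both arrays. The lowest signals seen were 38.1 (GFP) and 39.0 (HES1). No test was run, since each group holds 1 array, which bounds the precision. The gene summary was run on simulated data, with changes planted only in genes seen on both arrays. That run does not bear on genes seen on 1 array or on probes that disagree. Python 3.11.15, statsmodels 0.14.6 and limma 3.58.1 were used.

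Members, lists and thresholds were chosen with earlier results of these data known. Named genes were every member and, of each other list, up to 4 genes past 2-fold or the largest. Ltbr, Fas and the marker genes were named besides these, and 1 marker gene is not reported here. Alternatives are described in the closing section.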

Additional observations from a re-analysis of the deposited data

How the results depend on the processing

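Of 203 member values under 9 alternatives (quantile, median-centred and loess scaling, normexp, the deposited table, other filters, the median over probes and outlier spots kept), 190 moved by no more than the technical error, 13 moved further and 0 changed sign among called members. The superfamily counts of 8 higher and 1 lower became 5 and 1 under normexp (all genes 5.96% and 2.38%). For genes seen on both arrays they were 5 and 1 (all genes 7.04% and 4.41%). They became 9 and 1 after median centring (all genes 12.4% and 3.64%) and after loess (all genes 12.1% and 3.64%). In both of these Tnfsf9 passed 2-fold (1.06 and 1.07). Without a filter on dim probes 12 of 34 members were higher (all genes 11.4%), and the added 4 were below background. At 1.5-fold, 10 members were higher and 1 lower (all genes 17.4% and 14.6%), and at 3-fold 6 and 1 (6.99% and 1.25%). For the lists of related genes, the count lower (2) became 1 after median centring, 0 after loess and 1 under normexp. At 1.5-fold it was 4 with 15 higher, and at 3-fold 0 with 4 higher, to be read against the same shares of all genes. The median of all genes was -0.06 as reported, 0.05 after median centring and 0.07 after loess. Over all genes, 1582 were higher and 707 lower, and 850 and 339 under normexp. What caused these shifts was not tested, except that other thresholds and filters change which genes can count. Leaving out a replicate was not run, and no paired analysis was possible because each group had 1 array. Signals near 40 sit at the detection limit, where a fold cannot be given.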
